A study of Mus musculus with 12 samples.

Results

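The suppressors of cytokine signaling (SOCS) are a family of 8 genes, Socs1 to Socs7 and Cish, whose transcript levels were followed in bone marrow-derived dendritic cells (BMDCs) that carried or lacked the β2 integrin chain CD18. The members were chosen by gene symbol from the 41709 genes of the deposited count tables, and 8 of 8 were found and passed the filter on low counts in each comparison. Messenger RNA of MHCII+ BMDCs was sequenced in 12 libraries, 3 in each of 4 groups, with between 29689149 and 34037178 gene reads in each. The BMDCs had been grown from bone marrow for 10 days with GM-CSF, a cytokine that signals through JAK2 and STAT5.

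All 4 groups carried the floxed CD18 (Itgb2) gene. The CD18fl/fl groups had no Cre recombinase, whereas the CD18CD11c cKO groups carried Cre under the CD11c promoter, which is active mainly in dendritic cells, so cells of the culture without CD11c activity keep the gene. Of each genotype, 1 group was left unstimulated and 1 received 100 ng/mL lipopolysaccharide (LPS), a bacterial ligand of Toll-like receptor 4, for 24 h per the sample labels. The labels do not state whether the 3 libraries of a group came from separate mice, so the p-values measure only the spread between these libraries.

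SOCS proteins are brakes of cytokine receptors. Their SH2 domain binds phosphorylated receptors or Janus kinases (JAKs), and their SOCS box recruits Elongin B, Elongin C and Cullin 5, a ubiquitin ligase that marks the bound protein for degradation; SOCS1 and SOCS3 can also block JAK activity directly. Transcription of Cish, Socs1, Socs2 and Socs3 is induced by STAT factors as a negative feedback, whereas Socs4 to Socs7 are less bound to cytokine signals. In dendritic cells, SOCS1 and SOCS3 are known as restraints of interferon, IL-6 and IL-12 responses.

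Levels are given as CPM, read counts scaled to library size after TMM normalization over the 12 libraries, and, where genes are compared with each other, as RPKM, the same value per kilobase of exon length. On the RPKM scale the family split by library number. In replicates 1 and 2 of all 4 groups Socs2 was the most abundant member, and in replicate 3 of all 4 groups it was Socs3. The median level over the 12 libraries was 23.9 RPKM for Socs2, 9.34 RPKM for Socs3, 8.52 RPKM for Socs1 and 6.9 RPKM for Cish. The ranges of the last 3 overlapped widely, from 3.76 to 166 RPKM for Socs3, 3.78 to 61.2 RPKM for Socs1 and 2.79 to 58 RPKM for Cish. Socs6 and Socs4 had medians of 2.81 and 2.63 RPKM, and Socs7 and Socs5 were lowest with 1.19 and 0.843 RPKM. No level was at the counting floor: the lowest read number of a member was 46 reads, of Socs5, against a floor of 3 reads.

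The library numbers mattered for these genes and are described before the comparisons. Replicate 3 held far more Socs3, Cish and Socs1 transcript than replicates 1 and 2 in every group. Relative to the mean log2 CPM of replicates 1 and 2, averaged over the 4 groups, replicate 3 was 11.1-fold higher for Socs3, 9.33-fold for Cish and 4.4-fold for Socs1. Only 0.604% of the 13752 genes tested had a shift as high as that of Socs3, 0.793% as high as that of Cish and 2.98% as high as that of Socs1. Of the 8 members, Socs3 and Cish exceeded 4-fold in each of the 4 groups, as did 0.996% of all genes tested. The other 5 members lay near the median shift of all genes of 0.04 (log2), with 0.39 for Socs2, 0.38 for Socs7, 0.26 for Socs5, -0.01 for Socs4 and -0.12 for Socs6. These shifts were noticed in the data and are given as a description with no test.

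**Figure D1:**
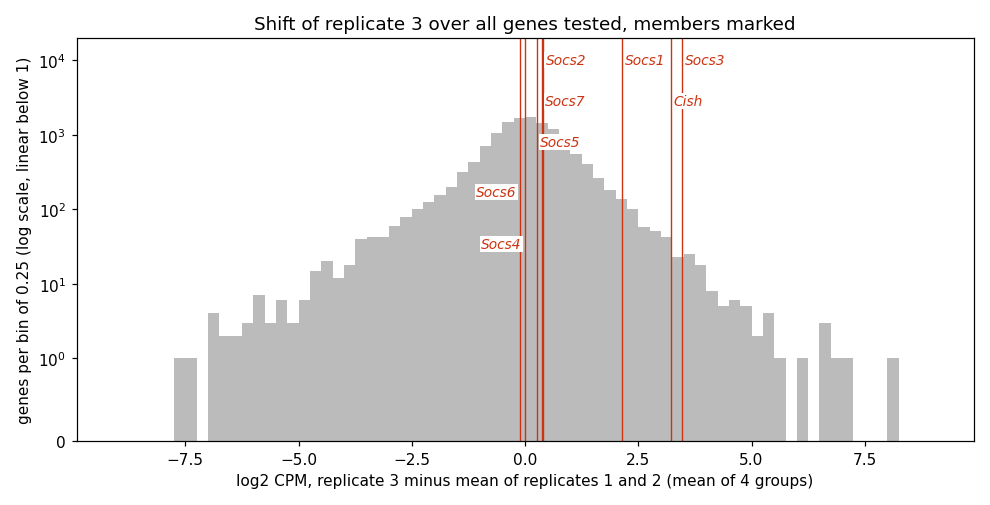
Number of genes (vertical axis, log scale above 1) by the shift of replicate 3 against the mean of replicates 1 and 2 in log2 CPM (horizontal axis, mean of the 4 groups), over the 13752 genes tested; red lines mark the SOCS family members. Socs1 at 2.14, Cish at 3.22 and Socs3 at 3.47 lie in the right tail, and the other 5 members lie between -0.12 and 0.39.

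Markers of cell types moved with the library number too. The summed level of 6 mast cell and basophil markers was 38.4 to 168 CPM in replicate 3 against 8.18 to 15 CPM in replicates 1 and 2, carried by Cpa3 and Gata2, while Fcer1a and Mcpt8 stayed below 2 CPM in all libraries. The 8 neutrophil markers summed to 8.82 to 14.4 CPM in replicate 3 against 42.2 to 1310 CPM, and 5 B cell markers to 0.636 to 2.54 CPM against 8.63 to 138 CPM. The 8 dendritic cell markers, led by the MHC class II genes, were detected in all libraries, with 13400 to 18400 CPM in replicate 3 and 19900 to 34300 CPM in replicates 1 and 2. Itgax, the CD11c gene of the same list, went the other way, with 284 to 680 CPM in replicate 3 and 30.7 to 210 CPM in replicates 1 and 2. In bulk RNA, a difference in the number of cells of a type and a difference in RNA per cell cannot be told apart. The part of these markers in the levels of Socs1, Socs3 and Cish was not tested.

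Lists of other genes of the pathway had median shifts with replicate 3 between -0.44 and 0.36 (log2). The median was -0.06 for 11 JAKs and STATs, -0.28 for 27 tested cytokine receptor chains and -0.25 for 14 STAT target genes, beside 0.04 for all genes. Within these lists the shift was 1.28 for Stat5a and -2.23 for Stat4. Among the receptors Lepr, the leptin receptor and a binding partner of SOCS3, was 3.72 higher (log2), and it was the only one of the 27 above 4-fold in all 4 groups.

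The level of the floxed gene was lower in the cKO. Itgb2 gave 382, 420 and 379 CPM in unstimulated CD18fl/fl BMDCs and 120, 163 and 189 CPM in the cKO, and after LPS 167, 171 and 266 CPM against 114, 89.7 and 119 CPM. The cKO libraries were lower without overlap in both states. Its log2 difference was -1.26 ± 0.23 (SE) unstimulated and -0.93 ± 0.29 under LPS, with adjusted p = 0.0887 and 0.428 (edgeR, Benjamini-Hochberg over all genes). With the replicate number as a block the adjusted p was 0.00392 and 0.0201. The gene reads also count exons outside the floxed part, and reads of the floxed part alone were not examined.

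The first question was whether BMDCs without CD18 differ in SOCS transcripts at rest. Socs3, Socs5, Socs6, Socs7 and Cish were lower in the cKO within each same-numbered pair, as were 33.9% of all genes. Socs5 and Socs7 were lower without overlap of the groups, as were 13.1% of all genes. Without the block 0 of 8 members were called (edgeR quasi-likelihood test, adjusted p threshold 0.05), as were 0.0% of the 12876 genes tested. At an unadjusted p under 0.05 the count was 1 of 8, Socs5, against 16.8% of all genes. DESeq2 called 0 of the 7 members to which it gave an adjusted p, against 2.86% of the 18793 genes with any read. Here and below, DESeq2 shares are over all genes with any read, also those without an adjusted p. They can therefore be lower than shares over genes with an adjusted p. Same-numbered libraries of the 4 groups deviated together from their group means, most clearly those of replicate 3. With the replicate block 1 of 8 members was called, Socs3, against 20.2% of all genes, of which 8.16% were lower.

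Socs3, the feedback inhibitor of IL-6 and G-CSF receptor signaling, gave 23.6, 24.5 and 146 CPM in unstimulated CD18fl/fl BMDCs (replicates 1, 2 and 3) and 13.8, 9.6 and 92 CPM in the cKO. The groups overlapped because replicate 3 of the cKO lay above replicates 1 and 2 of CD18fl/fl, but each cKO library was below the CD18fl/fl library of its number, with log2 ratios of -0.77, -1.35 and -0.66. Of all genes 33.9% were lower in the 3 pairs. The group means were 64.6 ± 70.2 and 38.5 ± 46.4 CPM (SD, n = 3). Without the block the log2 difference was -0.67 ± 1.05 (SE), adjusted p = 0.791 (edgeR); with the block it was -0.87 ± 0.18, adjusted p = 0.0165, a level of 0.549 times that of CD18fl/fl. In replicates 1 and 2 alone, a restriction chosen after the shift of replicate 3 was seen, the difference was -0.98 ± 0.24 with adjusted p = 0.046, and 10.6% of all genes were called. DESeq2 with the block also called Socs3 alone of the 8 members (adjusted p = 0.000298), against 16.2% of all genes.

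Only Socs3 of the 4 members with a RefSeq promoter entry held a STAT motif in the 250 bases before its RefSeq start. The other 3 matched members were Socs1, Socs4 and Cish. For Socs3 and Cish these 250 bases lie inside the annotated gene span, downstream of its 5′ end. Sequence upstream of the annotated 5′ ends of Socs3 and Cish was not searched. The site is shown because Socs3 was called for genotype in unstimulated BMDCs with the replicate block, though not without it. Capitals mark the match to the STAT motif TTCNNNGAA, and the 30 bases are from GRCm39 chr11:117860327-117860356, minus strand, read 5′ to 3′ along the gene:
Socs3 STAT motif: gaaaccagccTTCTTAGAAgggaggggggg
The match spans positions -154 to -146 from the RefSeq start and lies in the untranslated first exon of 1 GENCODE transcript of Socs3. TTCNNNGAA, its own reverse complement, occurred in 7.02% of the 32851 promoter windows of the same length. The tighter form TTCCNGGAA, which is contained in it, occurred in 0.913% and in none of the 4 matched members. A match is a description of these letters and not evidence of binding.

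Socs5, which acts on IL-4 and epidermal growth factor receptors, gave 6.82, 7.9 and 8.07 CPM in unstimulated CD18fl/fl BMDCs and 4.52, 3.67 and 4.8 CPM in the cKO. Every cKO library was below every CD18fl/fl library, and the means were 7.6 ± 0.675 and 4.33 ± 0.589 CPM (SD, n = 3). Socs7, which binds insulin receptor substrates and adaptor proteins, gave 11.3, 11.4 and 10.5 CPM against 5.2, 6.67 and 9.97 CPM. The cKO was again lower throughout, although replicate 3 was close in both groups. Such a separation with the cKO lower was found for 13.1% of all genes, and the exact two-sided permutation test gave p = 0.1 for both members, the smallest that 3 against 3 libraries allow, or 0.356 after adjustment over the 32 member comparisons. In edgeR Socs5 had a log2 difference of -0.75 ± 0.27, adjusted p = 0.24, or 0.0779 with the block, and Socs7 one of -0.55 ± 0.3, adjusted p = 0.395, or 0.147 with the block.

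Socs6, an adaptor that targets receptor tyrosine kinases such as KIT, was below CD18fl/fl in each unstimulated pair, with log2 ratios of -0.69, -0.34 and -0.09, and its groups overlapped. Cish was nearly level in the pairs, with ratios of -0.06, -0.28 and -0.2. The other members did not keep one direction. Socs1 was lower in replicates 1 and 3 (-0.55 and -0.77) and level in replicate 2 (0.06), Socs2 lay between -0.07 and 0.03, and Socs4 was higher in replicate 2 alone (0.6). The fitted direction of Socs2 and Socs4, 0.04 and 0.1 (log2), turned to -0.34 and -0.29 when total reads replaced TMM as the scale, a change that also moved the median of all genes from -0.05 to -0.44.

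**Figure D2:**
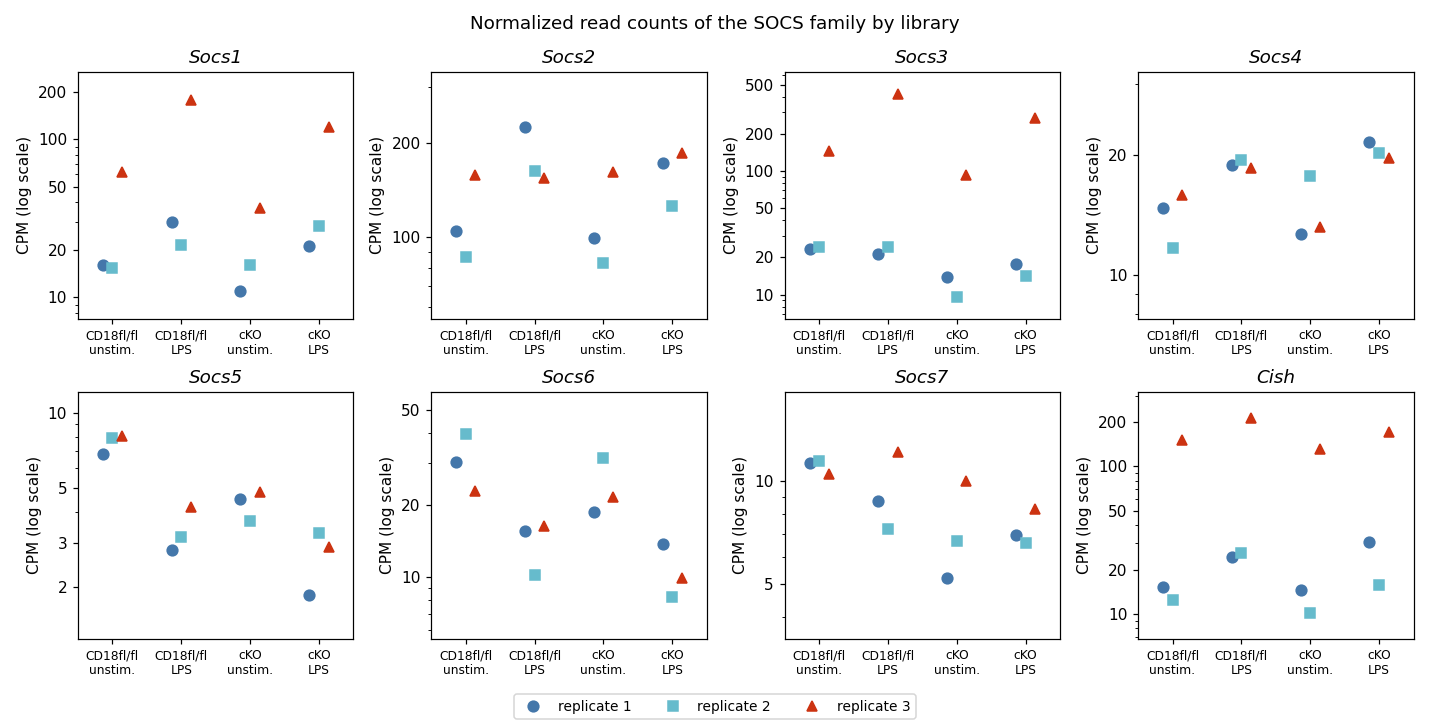
Normalized read counts (CPM, log scale) of the 8 SOCS family members in the 12 libraries; 1 panel per gene, 3 libraries per group, with symbols for replicates 1, 2 and 3. Replicate 3 lies far above the other libraries of each group for Socs1, Socs3 and Cish, and the LPS groups lie below the unstimulated groups of their genotype for Socs5 and Socs6.

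The second question was the genotype difference under LPS. No member was called without the block, 0 of 8, as were 0.0% of the 12441 genes tested (edgeR), 0 of 8 members reached an unadjusted p under 0.05 against 9.74% of all genes, and DESeq2 called 0 of the 7 with an adjusted p, against 0.787%. With the block edgeR again called 0 of 8, against 10.1% of all genes, with Socs3 nearest to the threshold. Socs3 gave 21.2, 24.1 and 422 CPM in LPS-treated CD18fl/fl BMDCs and 17.8, 14.2 and 268 CPM in the cKO. The cKO library was the lower one in each of the 3 pairs, with log2 ratios of -0.25, -0.76 and -0.66, as for 26.1% of all genes, while the groups overlapped. The log2 difference was -0.65 ± 1.51 without the block (adjusted p = 0.925) and -0.58 ± 0.16 with it (adjusted p = 0.0625, edgeR). Its call depended on the model: a length correction in the blocked edgeR fit gave adjusted p = 0.0406, with 8.87% of all genes called, and DESeq2 with the block 0.0199, with 9.81% called.

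The groups did not overlap for 1 member under LPS, Socs4, which was higher in the cKO as were 9.51% of all genes without overlap, and the difference was small. Socs4, a regulator of epidermal growth factor receptor turnover, gave 18.9, 19.4 and 18.5 CPM in CD18fl/fl and 21.5, 20.2 and 19.6 CPM in the cKO. The cKO was higher in each pair, with a log2 difference of 0.09 ± 0.2 and adjusted p = 0.925 (edgeR), and the difference was -0.17 on the scale of total reads. The exact two-sided permutation p was 0.1.

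Taking both states, 3 members were lower in the cKO in 6 of 6 same-numbered pairs: Socs3, Socs6 and Socs7. This pattern was found in 16.1% of the 13752 genes. Socs5 and Cish were lower in 5 of 6 pairs, Socs1 and Socs2 in 4 of 6 and Socs4 in 2 of 6. The 2 states do not share libraries, but same-numbered libraries of all groups deviated together. Among cell type markers, 8 macrophage genes summed to 1610 to 2310 CPM in the unstimulated cKO and 1630 to 1820 CPM in unstimulated CD18fl/fl, which overlap, and to 506 to 902 CPM in the LPS-treated cKO and 1050 to 1300 CPM in LPS-treated CD18fl/fl, which do not. No marker was at the floor. Adgre1 and Cd68 were lower without overlap in the cKO in both states. C1qb was higher without overlap in the unstimulated cKO (616, 548 and 767 against 404, 364 and 396 CPM). In the LPS-treated cKO Mertk and C1qc were higher in replicate 3 (101 against 57.1 CPM and 92.6 against 58.8 CPM). The part of these markers in the genotype differences was not tested.

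**Figure D3:**
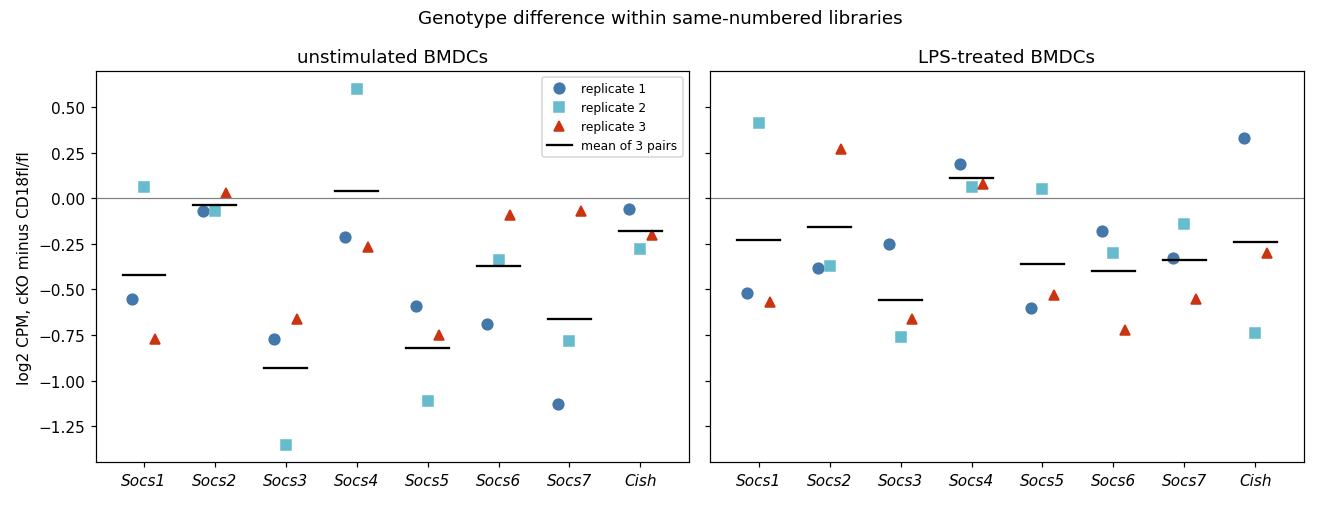
Log2 ratio of CPM, CD18CD11c cKO over CD18fl/fl (vertical axis), for each SOCS family member in same-numbered libraries, unstimulated (left) and LPS-treated (right); symbols are replicates and bars the mean of 3 pairs. Socs3, Socs6 and Socs7 lie below 0 in 6 of 6 pairs.

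The third question was the response to LPS in CD18fl/fl BMDCs. The family did not move as 1 group: Socs5 and Socs6 were lower and Socs1, Socs4 and Cish higher with LPS in each pair of both genotypes. In CD18fl/fl BMDCs edgeR called 0 of 8 members, against 3.89% of the 12744 genes tested, and 2 of 8, Socs5 and Socs6, reached an unadjusted p under 0.05, against 23.8%. With the replicate block it called 0 of 8 against 12.8%. DESeq2 called 2 of the 6 members with an adjusted p, Socs5 and Socs6, against 9.48% of the 18927 genes with any read. With the block it called 4, Socs1, Socs5, Socs6 and Cish, against 16.5% of these genes.

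Socs5 gave 6.82, 7.9 and 8.07 CPM in the unstimulated libraries and 2.82, 3.16 and 4.17 CPM after LPS. The LPS libraries were all below the unstimulated ones, a difference called by DESeq2 (adjusted p = 0.0366) and not by edgeR, in which the log2 difference was -1.16 ± 0.32 (adjusted p = 0.0934, edgeR) or -1.17 ± 0.3 with the block (adjusted p = 0.0533). Socs6 gave 30.2, 39.6 and 22.9 CPM unstimulated and 15.6, 10.2 and 16.4 CPM after LPS. These groups did not overlap either, with a log2 difference of -1.13 ± 0.31, adjusted p = 0.0923 without and 0.0755 with the block (edgeR). Without LPS replicate 3 of CD18fl/fl, edgeR called Socs5 and Socs6, but also 24.7% of all genes.

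Socs1, the inhibitor of JAK1, JAK2 and TYK2 in interferon signaling, gave 16.1, 15.4 and 62.5 CPM in unstimulated CD18fl/fl BMDCs and 30.1, 21.3 and 178 CPM after LPS. It was higher with LPS within each number, by 1.87-fold, 1.38-fold and 2.85-fold, while the groups overlapped across numbers. The log2 difference was 1.3 ± 0.93 (adjusted p = 0.43, edgeR) and 0.97 ± 0.27 with the block (adjusted p = 0.0667). Cish, an inhibitor of IL-2, GM-CSF and STAT5 signaling, gave 15.2, 12.4 and 150 CPM unstimulated and 24.4, 26 and 212 CPM after LPS. It too was higher in each pair, by 1.6-fold, 2.1-fold and 1.41-fold, with adjusted p = 0.076 in the blocked edgeR fit.

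Socs3 did not respond alike in the 3 CD18fl/fl pairs. It was level in replicates 1 and 2, with LPS-to-unstimulated ratios of 0.898 and 0.981, and 2.9-fold higher in replicate 3. The difference of 1.29 ± 1.29 (log2) in edgeR fell to 0.45 ± 0.38 with the block and was -0.09 ± 0.18 in replicates 1 and 2 alone. Socs2, an inhibitor of growth hormone receptor signaling, had the opposite profile: 105, 86.8 and 158 CPM unstimulated and 224, 163 and 154 CPM after LPS, so that it was 2.13-fold and 1.88-fold higher in replicates 1 and 2 and 0.974-fold in replicate 3. Socs4 gave 14.7, 11.7 and 15.9 CPM unstimulated and 18.9, 19.4 and 18.5 CPM after LPS, without overlap. Socs4, Socs5 and Socs6 were the 3 of 8 members with separate groups, against 29.5% of all genes. In replicates 1 and 2 alone edgeR called 6 of 8 members, Socs1, Socs2, Socs4, Socs5, Socs6 and Cish, but also 47.5% of all genes.

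In CD18CD11c cKO BMDCs the LPS differences had the same signs for each member in edgeR. It called 0 of 8 members against 3.99% of the 12687 genes, with 1 of 8, Socs6, at an unadjusted p under 0.05 against 21.2%. With the block it called 2 of 8, Socs1 and Socs6, against 20.2%. DESeq2 called 1 of the 7 members with an adjusted p, Socs6, against 7.98% of the 19186 genes with any read. With the block it called 4 of 8, Socs1, Socs3, Socs6 and Cish, against 17.6% of these genes.

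Socs6 gave 18.7, 31.3 and 21.6 CPM in unstimulated cKO BMDCs and 13.7, 8.26 and 9.93 CPM after LPS. All LPS libraries were below all unstimulated ones, with a log2 difference of -1.22 ± 0.32 (adjusted p = 0.0824, edgeR) and -1.2 ± 0.31 with the block (adjusted p = 0.0369). Socs1 gave 11, 16 and 36.6 CPM unstimulated and 21, 28.2 and 120 CPM after LPS. Within numbers it was 1.91-fold, 1.76-fold and 3.27-fold higher, and the log2 difference was 1.4 ± 0.77 without (adjusted p = 0.348) and 1.11 ± 0.24 with the block (adjusted p = 0.0221, edgeR).

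Socs3 was higher with LPS in each of the 3 cKO pairs, by 1.29-fold, 1.48-fold and 2.91-fold, and the blocked edgeR fit gave 0.78 ± 0.28 (log2), adjusted p = 0.0918. Cish was 2.09-fold, 1.53-fold and 1.32-fold higher, with adjusted p = 0.0603 in that fit. Socs5 was lower in each pair, with log2 ratios of -1.28, -0.16 and -0.74, and its adjusted p was 0.247. Socs4, Socs5 and Socs6 were again the 3 of 8 members with separate groups, against 28.1% of all genes, each with an exact two-sided permutation p of 0.1. Socs7 had no common direction, with log2 ratios of 0.42, -0.01 and -0.27.

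**Figure D4:**
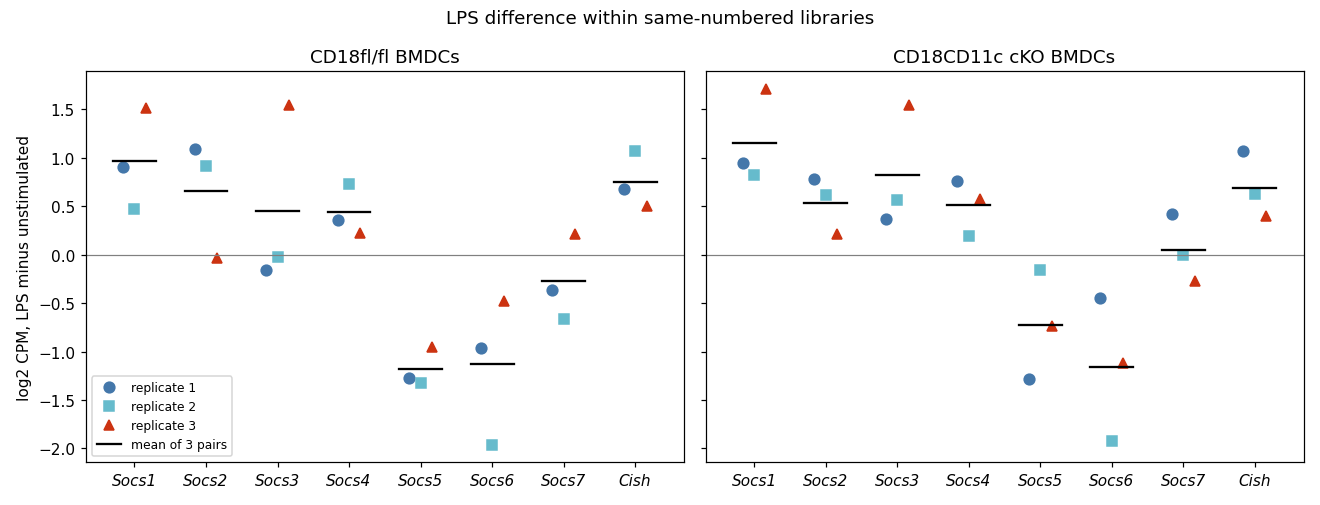
Log2 ratio of CPM, LPS-treated over unstimulated (vertical axis), for each SOCS family member in same-numbered libraries of CD18fl/fl (left) and CD18CD11c cKO BMDCs (right); symbols are replicates and bars the mean of 3 pairs. Socs5 and Socs6 lie below 0 and Socs1, Socs4 and Cish above 0 in 6 of 6 pairs.

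Over both genotypes Socs5 and Socs6 were lower with LPS in 6 of 6 pairs, as were 18.7% of the 13752 genes, and Socs1, Socs4 and Cish were higher in 6 of 6, as were 18.4%. Socs2 was higher in 5 of 6 pairs, Socs3 in 4 of 6 and Socs7 in 2 of 6. The summed macrophage markers were lower in the LPS groups, from 1630 to 1820 CPM to 1050 to 1300 CPM in CD18fl/fl and from 1610 to 2310 CPM to 506 to 902 CPM in the cKO, and their part in the LPS differences was not tested.

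The last comparison was whether the LPS response of a member differed between genotypes. The interaction of genotype and LPS was called for 0 of 8 members in edgeR without and with the block, as for 0.0% of the 13752 genes, and 0 of 8 had an unadjusted p under 0.05, against 0.705% of all genes. DESeq2 called 0 of the 7 with an adjusted p, against 0.00485%, and 0 of 8 with the block, against 0.63%. The interaction with the block ranged from -0.16 ± 0.32 (log2, Socs2) to 0.46 ± 0.43 (Socs5), and that of Socs3 was 0.39 ± 0.46. With these errors, log2 differences in response of the size of the estimates were not detectable.

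The surroundings of the family were read from lists of pathway genes. Of 8 SOCS box partners none was called for genotype without the block, but with it 5 were higher in unstimulated cKO BMDCs (Eloc, Rnf7, Ube2f, Nedd8 and Rbx1; 12.1% of all genes were higher) and 2 under LPS (Eloc and Rnf7; 6.98%). Eloc, which encodes the Elongin C that binds the SOCS box, gave 96.5, 75.2 and 81.3 CPM in unstimulated CD18fl/fl BMDCs and 216, 190 and 182 CPM in the cKO. The groups were far apart, and the blocked log2 difference was 1.28 ± 0.13 with adjusted p = 0.00303 (edgeR). A correction for exon length in the blocked fit lowered the share of all genes called in unstimulated BMDCs from 20.2% to 11.5% and the partners called higher from 5 to 2, Eloc and Ube2f, against 5.69% of all genes. Elob, which encodes Elongin B, was then called lower, as were 5.8% of all genes, although its log2 difference without the correction was 0.31 ± 0.13 (adjusted p = 0.136 with the block). Under LPS Eloc remained the 1 partner called, against 3.92% of all genes called higher. In unstimulated BMDCs Socs3 stayed called with the correction (adjusted p = 0.0211, edgeR).

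Of 11 JAKs and STATs none was called for genotype without the block, and all 11 had a log2 difference below 0 in unstimulated cKO BMDCs, with a median of -0.49 beside -0.05 for all genes. With the block 5 were called lower there, Jak1, Stat3, Stat4, Stat5b and Stat6 (8.16% of all genes were lower), and Stat6 was called lower under LPS, as were 3.16% of all genes. With the length correction 1 of 11 was called lower in unstimulated cKO, Stat4, and 1 under LPS, Stat6, against 5.8% and 4.95% of all genes. Of the cytokine receptor chains 8 of 27 tested were called lower in unstimulated cKO with the block, and 2 of 25 under LPS. Among the 8 were Csf2rb, the shared chain of the GM-CSF receptor, and Csf2rb2. With the length correction 3 of 27 were called lower in unstimulated cKO, and Csf2rb and Csf2rb2 were not among them, and 3 of 25 under LPS. None of the receptors was called without the block. Of 14 STAT target genes 12 had a log2 difference below 0 in each state, and with the block 1 was called lower in each, Il4ra unstimulated and Il1rn under LPS, against 8.16% and 3.16% of all genes. With the length correction 3 were called lower in each, Gadd45g, Bcl3 and Il1rn, against 5.8% and 4.95%.

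Il6 and Ebi3, a subunit of IL-27 and IL-35, rose with LPS in both genotypes. Of the cytokines that signal through JAKs, 12 of 20 were tested in each genotype and all 12 had a log2 difference above 0. The 12 were not the same genes, since Ifnb1 passed the filter on low counts in the cKO only. The filter keeps a gene that reaches the minimum count in a single group. A cytokine nearly absent without LPS, such as Ifnb1, was thus tested only because of its LPS libraries. Its direction was partly fixed by the filter, so the shared direction of the 12 is a description only. In CD18fl/fl 2 were called, Il6 and Ebi3, and in the cKO 5, Il6, Ebi3, Ifnb1, Il12a and Il12b. Of all genes 2.06% and 2.23% were called higher. With the block 6 and 10 were called, against 6.33% and 10.2%. Il6, whose receptor chain is a target of SOCS3, rose from 2.25, 2.08 and 11.2 CPM to 302, 366 and 360 CPM in CD18fl/fl (adjusted p = 0.0162) and from 6.58, 5.73 and 6.36 CPM to 389, 489 and 815 CPM in the cKO (adjusted p = 0.00885, edgeR). The 3 libraries of each LPS group were far above those without LPS, also in replicates 1 and 2, where Socs3 was level in CD18fl/fl. Ifnb1, an interferon whose signaling SOCS1 restrains, had 0 reads in the 3 unstimulated cKO libraries, which allows up to 0.1 CPM of total reads, and 1.46, 8.75 and 2.3 CPM after LPS. In CD18fl/fl Ifnb1 gave 0.139, 0 and 0 CPM unstimulated and 4.46, 3.83 and 0.203 CPM after LPS. Its genotype difference under LPS was 0.53 ± 1.08 (log2, adjusted p = 0.911, edgeR).

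Of the JAKs and STATs, Stat2 was called higher with LPS in both genotypes. Stat2, a partner of type I interferon signaling, rose from 28.5, 17.6 and 29.1 CPM to 216, 186 and 181 CPM in CD18fl/fl (adjusted p = 0.0127) and from 16.9, 15.3 and 32.9 CPM to 183, 201 and 209 CPM in the cKO (adjusted p = 0.0131, edgeR). Of 14 STAT target genes all were above 0 in both genotypes, and 4 were called in CD18fl/fl (Isg15, Cxcl10, Gadd45g and Fgl2) and 2 in the cKO (Isg15 and Gadd45g), or 8 and 9 called higher with the block. Of all genes 2.06% and 2.23% were called higher without the block, and 6.33% and 10.2% with it. Of 18 other brakes of JAK-STAT signaling 1 was called in both genotypes without the block, against 2.06% and 2.23% of all genes called higher. It was Usp18, which blocks the type I interferon receptor. Usp18 rose from 67, 35.5 and 18.4 CPM to 480, 536 and 361 CPM in CD18fl/fl (adjusted p = 0.0206) and from 84.1, 43.4 and 27 CPM to 410, 366 and 469 CPM in the cKO (adjusted p = 0.0219, edgeR). With the block 4 and 5 of these 18 were called higher, against 6.33% and 10.2% of all genes, and 1 was called lower in both, Asb2, against 6.43% and 9.93%. None of the receptor chains or SOCS box partners was called for LPS without the block. With it 7 of 26 receptor chains were called in CD18fl/fl (4 higher and 3 lower) and 11 of 27 in the cKO (7 higher and 4 lower), against 12.8% and 20.2% of all genes, and 1 of 8 partners in both, Eloc, which was higher. Because the comparisons of one genotype share no library with those of the other, but same-numbered libraries deviated together, these counts are given side by side only.

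Across the 12 libraries the members formed a cluster of 3 and a looser rest. Pearson's r of log2 CPM was 0.95 between Socs3 and Cish, 0.93 between Socs1 and Socs3 and 0.9 between Socs1 and Cish, and these values carry the gap between replicate 3 and the other libraries. Socs4 ran against Socs5 (r = -0.79) and Socs6 (r = -0.73), and Socs5 with Socs6 (r = 0.71), which carry the LPS groups. Over 8962 genes with a mean of at least 5 CPM, the genes most like a member were Furin for Socs3 (r = 0.99), Pgs1 for Cish (0.964), Nus1 for Socs1 (0.976) and Il2ra for Socs2 (0.913). They were Dubr for Socs4 (0.925), Sulf2 for Socs5 (0.976), Rab35 for Socs6 (0.967) and Srebf1 for Socs7 (0.951). All are descriptions over n = 12 libraries that share groups and replicate numbers. Pgs1 was also among the genes most like Socs3 (0.965).

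Most reads behind these levels came from exons of the members. On GRCm39, Socs1 lies at chr16:10600104-10603400, Socs2 at chr10:95221224-95253042, Socs3 at chr11:117856905-117860873, Socs4 at chr14:47514388-47533559, Socs5 at chr17:87415107-87445267, Socs7 at chr11:97253261-97289368 and Cish at chr9:107173225-107179983, and Socs6 on chromosome 18. Intron reads made up from 0.393% (Socs4) to 4.67% (Cish) of a member's reads pooled over libraries. Reads with several genomic positions numbered 2 for Socs6 and 0 for the other members. Antisense genes overlap Socs1, Socs2, Socs3, Socs6, Socs7 and Cish, and the library kit does not mark strand, so reads of these pairs cannot be told apart. In replicate 3, the reads of Socs3 in introns were 1.26% to 2.41% of its reads and in replicates 1 and 2 0.155% to 6.35%, and for Cish 4.23% to 5.64% and 0% to 5.83%.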

How the data were processed

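RNA of MHCII+ BMDCs was converted by the authors to poly(A) libraries with 15 PCR cycles and sequenced as 59-base single reads; reads were trimmed, aligned and counted per gene in CLC Genomics Workbench. The deposited values used here are total gene reads, raw counts that the authors did not normalize. Exon length, given by the authors per gene in the same tables, was used for RPKM. Per the submitters' processing notes the build is GRCm38, whereas the study's methods name GRCm39; 98% of 41182 gene positions matched GENCODE vM39 on GRCm39 within 1 kb, and coordinates are given on GRCm39. Floors cover counting error only, and the reads carry no molecular identifiers. The ± values are SDs over libraries or SEs of the fits, and both include the spread between libraries.

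Samples were grouped by the labels. Counts were tested over all genes with edgeR 4.0.16 (quasi-likelihood, TMM, filterByExpr with a minimum count of 10, Benjamini-Hochberg threshold 0.05; R 4.3.3, limma 3.58.1), each comparison on its 6 libraries and the interaction on 12, without a block. Alternatives were the replicate block, DESeq2 1.42.0, other scalings, filters and counts, a length offset and leaving out each library. Blocked DESeq2, blocked scaling by total reads and replicates 1 and 2 alone were added after seeing the data. An adjusted p that DESeq2 did not give was left missing, and the DESeq2 shares of all genes count such genes as not called. Same-numbered libraries deviated together from their group means, with correlations of 0.265 to 0.716 over 12 same-numbered library pairs, so the numbers were taken to pair libraries. This was clear mainly for replicate 3, with 0.524 to 0.716. Replicates 1 and 2 gave 0.265 to 0.451 with their own number in another group and 0.154 to 0.334 with each other's number. What a number marks is not given in the sources used here. Scripts were tested on simulated data.

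The members and lists were chosen with earlier results of these data known. Named genes were the 8 members, Itgb2, up to 3 genes per list, direction and LPS comparison with the smallest adjusted p, and up to 3 genes most like each member; genes called with the block or length offset, single marker genes, Fgl2, Il12a and Il12b, and genes named for their replicate 3 shift were added after their values were seen. Promoter windows were taken from RefSeq (GRCm39), for 4 of 8 members. Results of 1 further gene of the lists are not reported here.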

Additional observations from a re-analysis of the deposited data

How the results depend on the processing

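The comparisons called 0 of 8 members in the fit without a block. In unstimulated BMDCs the genotype count was 1 with the replicate block, alone, with a length offset or in DESeq2, and 1 in replicates 1 and 2 alone, each time Socs3. Of all genes these fits called 20.2%, 11.5%, 16.2% and 10.6%. The count was 6, all lower, with the block on total reads, a scale on which 30.1% of all genes were called lower and the median of all genes was -0.46. Under LPS the genotype count was 1, Socs3, with the block and length offset, with blocked DESeq2 and with the block on total reads. Of all genes these fits called 8.87%, 9.81% and 21.2%. The LPS count in CD18fl/fl was 2 in DESeq2 (9.48% of all genes), 6 in replicates 1 and 2 alone (47.5%) and 4 in blocked DESeq2 (16.5%). It was 1 with the block on total reads (12.7%), 1 in a fit of all 12 libraries and 0 to 2 when 1 library was left out (24.7% without LPS replicate 3). In the cKO the LPS count was 1 in DESeq2 (7.98%) and in the fit of all 12 libraries, and 4 in blocked DESeq2 (17.6%). It was 2 with the block (20.2%), the block and length offset (19.8%) or the block on total reads (21.7%). For the fit of all 12 libraries the share of all genes was not computed. The block changed no other call of a member. Unique reads, RLE size factors and no filter on low counts kept all counts and directions.

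Some differences changed sign (log2). For genotype unstimulated, Socs2 was -0.03 with all 12 libraries, -0.01 in replicates 1 and 2, and -0.34 on total reads or -0.37 with the block there; Socs4 was -0.29 and -0.3 on total reads. Under LPS Socs4 was -0.17 on total reads without and with the block. For LPS, Socs3 in CD18fl/fl was -0.09 in replicates 1 and 2, and Socs7 in the cKO 0.0 with all 12 libraries and in blocked DESeq2 and 0.09 in replicates 1 and 2. For the interaction, Socs6 was 0.0 on total reads, 0.01 with the block there and 0.2 in replicates 1 and 2, Socs4 -0.07 with the block and length offset and -0.13 in replicates 1 and 2, and Cish 0.01 with the block on total reads. The cause was not tested.

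Leaving out 1 library unbalanced replicate 3 between the groups. The genotype difference unstimulated then ranged from -2.39 to 0.72 for Socs3, -2.18 to 1.95 for Cish, -1.13 to 0.47 for Socs1, -0.28 to 0.29 for Socs2 and -0.08 to 0.19 for Socs4. Under LPS it ranged from -3.35 to 2.15 for Socs3, -1.98 to 1.52 for Cish, -1.7 to 1.12 for Socs1 and -0.32 to 0.02 for Socs2. The LPS difference ranged in CD18fl/fl from -1.5 to 2.7 for Socs3, -1.22 to 2.67 for Cish and -0.28 to 2.29 for Socs1, and in the cKO from -1.37 to 3.12 for Socs3, -1.26 to 2.56 for Cish and -0.25 to 0.26 for Socs7. The interaction ranged from -2.54 to 2.82 for Socs3, -2.19 to 2.0 for Cish, -1.08 to 1.6 for Socs1, -0.5 to 0.19 for Socs2, -0.11 to 0.23 for Socs4 and -0.35 to 0.22 for Socs6. No difference of Socs5 changed sign under these alternatives, and none of Socs6 outside the interaction.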
